A study of Homo sapiens with 54 samples.

Results

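The vehicle controls of a time course were compared with each other: BT549 cells given DMSO and harvested at 24 h, and BT549 cells given DMSO and harvested at 4 h. The 6 libraries, 3 per time, were chosen by their sample titles, and they are 6 of the 54 libraries of the series and 6 of the 24 libraries of its experiment with the inhibitor BRM014. BT549 is a line of human breast cancer cells of the triple-negative class, and the labels give its genotype as wild type. DMSO is the solvent of BRM014, which blocks BRG1 and BRM, the motor enzymes of SWI/SNF nucleosome remodellers. The treated groups used below received 500 nM dexamethasone (DEX, a synthetic glucocorticoid) together with DMSO, 10 µM BRM014, or DEX with BRM014, for 24 h or 4 h, with 3 libraries in each. The 24 h time comes from the sample titles and the treatment labels. The treatment protocol, in contrast, names only 4 h for BRM014 and 2 h or 4 h for DEX. The labels give no DMSO concentration, and none says whether medium was changed between the times.

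Cells that sit in the same dish for most of a day divide, draw down glucose and amino acids, acidify the medium and come closer together, and each of these has well-known readouts in messenger RNA. Hypoxia and glycolysis genes answer to HIF transcription factors, amino acid shortage is read by ATF4, crowding by YAP and TEAD, and sterol supply by SREBP. Interferon-response genes are switched on when type I interferon activates its receptor, and many tumour lines express them without added interferon. A vehicle comparison across time shows which of these readouts differ without any drug.

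The 24 h libraries held 27135629, 22780621 and 29339329 counts, and the 4 h libraries 22854677, 23238886 and 17404577. The cell label was read from markers of mesenchymal tumour cells. VIM, which encodes the mesenchymal filament protein vimentin, was at 1760, 1880 and 1750 counts scaled to library size (CPM) at 24 h, against 1750, 1800 and 1750 CPM at 4 h. The mesenchymal cadherin gene CDH2 was at 230.6, 237.9 and 258.8 CPM at 24 h, against 230.6, 237.2 and 242.7 CPM at 4 h. CDH1, the epithelial cadherin gene, lay between 6.69 and 8.49 CPM over the 6 libraries. Other epithelial RNA was present. The 23 genes of the epithelial state list, CDH1 included, summed to 160, 130 and 120 CPM at 24 h, against 177, 146 and 138 CPM at 4 h. Of the receptors that define the triple-negative class, the progesterone receptor gene PGR had no count in any of the 6 libraries, where 3 counts correspond to 0.102 to 0.175 CPM. ESR1 and FOXA1 had at most 2 counts in a library. ERBB2, the HER2 gene, was at 73.7, 74.7 and 74.9 CPM at 24 h and at 70.9, 70.9 and 68 CPM at 4 h, so its RNA was present. The B-cell gene MS4A1, the T-cell gene CD3D and the endothelial receptor gene KDR had no count, and the leukocyte gene PTPRC stayed under 1 CPM. Other markers were present: the 9 blood-cell markers summed to 16.7 to 21.7 CPM, of which CD68, a lysosomal gene also known in other cells, made up 14 to 16.9 CPM and CD14 1.33 to 4.49 CPM. The 6 endothelial markers summed to 0.873 to 2.04 CPM, nearly all from TEK. Total RNA of a dish was measured, so fewer cells of a kind and less RNA per cell cannot be told apart.

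Whether DMSO-treated cells differed between 24 h and 4 h was tested gene by gene. No gene passed an adjusted p under 0.05 with edgeR's quasi-likelihood test: 0 of 14547 genes tested were called, which is 0%, and the smallest adjusted p was 1. At an unadjusted p under 0.05 there were 174 genes (1.2%), 110 higher and 64 lower at 24 h. That is below the share of 0.05 expected if no gene differed, so the fit over 24 libraries may be conservative for this comparison. The count of 0 called genes therefore does not show that no gene differed. DESeq2 also called 0 genes, with 129 at an unadjusted p under 0.05. The same replicate numbers at both times deviated together from their group means, and a fit that keeps the number as a block also called 0 genes, with 276 at an unadjusted p under 0.05 and a smallest adjusted p of 0.9. Fitted alone, the 6 libraries gave 0 called genes and 392 at an unadjusted p under 0.05. With the block added, they gave 0 called genes and 776 at an unadjusted p under 0.05, and the smallest adjusted p was 0.798.

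The data bound how large a difference could be for most genes. Among 10633 genes whose mean reached 5 CPM in one or both DMSO groups, the median standard error (SE) of the log2 fold change was 0.125. The 95% confidence interval lay within a 2-fold difference in either direction for 9846 of them (92.6%), and within a 1.5-fold difference for 8887 (83.6%). With the replicate number as a block these shares were 94.4% and 86.9%. The estimates themselves were small: the central 90% of log2 fold changes at 5 CPM or more ran between -0.269 and 0.155, and 13 genes exceeded 1 in size. Under the replicate block 70 genes did, and without DMSO 24 h replicate 3 the number was 151. In 1305 genes (8.97%) the 3 levels at 24 h did not overlap the 3 levels at 4 h, with 624 (4.29%) higher and 681 (4.68%) lower at 24 h.

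Interferon-response genes differed with the replicate number far more than with the time. Promoters of 3 of these genes are shown because they hold matches to the sequence through which interferon signalling is known to act, the interferon-stimulated response element. The windows are 250 bases before and 50 bases after the annotated start, from RefSeq on GRCh38.p14, on the plus strand: MX1 chr21:41420308-41420607, IFIT1 chr10:89392373-89392672 and ISG15 chr1:1013247-1013546. Capitals mark matches to GAAANNGAAA on either strand.
MX1: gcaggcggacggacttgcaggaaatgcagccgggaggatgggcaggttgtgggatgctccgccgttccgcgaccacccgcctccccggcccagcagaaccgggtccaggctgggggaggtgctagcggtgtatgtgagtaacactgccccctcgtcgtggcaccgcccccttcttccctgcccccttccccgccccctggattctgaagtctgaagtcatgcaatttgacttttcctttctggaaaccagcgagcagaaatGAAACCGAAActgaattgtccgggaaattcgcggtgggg
IFIT1: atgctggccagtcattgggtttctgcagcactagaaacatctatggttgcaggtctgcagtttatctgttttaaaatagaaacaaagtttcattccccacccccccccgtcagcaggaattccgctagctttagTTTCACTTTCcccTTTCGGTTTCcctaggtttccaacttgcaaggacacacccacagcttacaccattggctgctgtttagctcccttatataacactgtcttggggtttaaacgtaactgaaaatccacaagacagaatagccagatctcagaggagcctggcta
ISG15: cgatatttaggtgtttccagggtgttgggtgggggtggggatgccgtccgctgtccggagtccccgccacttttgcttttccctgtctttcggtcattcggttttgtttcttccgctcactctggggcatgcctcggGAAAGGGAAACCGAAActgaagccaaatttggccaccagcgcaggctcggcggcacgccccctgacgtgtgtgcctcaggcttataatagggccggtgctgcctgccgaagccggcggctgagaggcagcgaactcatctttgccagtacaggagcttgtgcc

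The ISG15 matches overlap each other and face the gene, the IFIT1 matches stand on the opposite strand, and the MX1 match lies just after the annotated start. Of 28 interferon-list promoters found in the RefSeq table, 18 held the element (64.3%), against 996 of all 27305 promoters (3.65%). A match in a window describes its letters and does not show binding.

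MX1, an antiviral GTPase gene (chromosome 21, 41420304 to 41459214, GRCh38), was at 880, 400 and 658 CPM in DMSO 24 h replicates 1, 2 and 3, against 983, 398 and 593 CPM in DMSO 4 h. The groups overlapped almost fully. The log2 fold change was -0.03 with a 95% interval of -1.24 to 1.18, and 0.01 with an interval of -0.44 to 0.45 under the replicate block. IFIT1, whose product binds foreign RNA (chromosome 10, 89392546 to 89406486), was at 166.6, 78.3 and 126.0 CPM at 24 h, against 224.0, 81.6 and 120.8 CPM at 4 h. ISG15, which encodes a ubiquitin-like modifier (chromosome 1, 1001138 to 1014540), was at 315.2, 182.5 and 260.6 CPM at 24 h, against 386.2, 179.4 and 260.5 CPM at 4 h. In each of the 3 genes replicate 1 was highest and replicate 2 lowest at both times. RSAD2, which encodes the antiviral enzyme viperin, was at 65.9, 27.8 and 37.8 CPM at 24 h, against 88.4, 30.1 and 42.6 CPM at 4 h, lower at 24 h within each number. Its log2 fold change under the block was -0.24 (95% interval -0.45 to -0.03), and it was not called in that fit either.

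**Figure D1:**
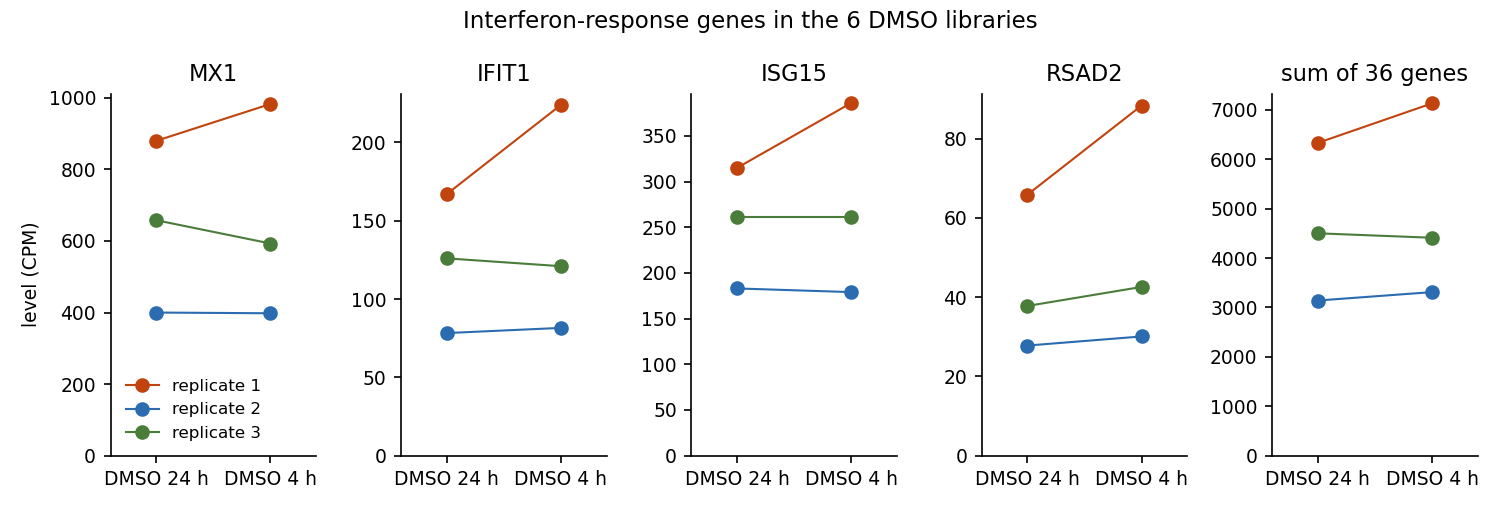
Levels in CPM (linear axes from 0) of 4 interferon-response genes and of the sum of 36 such genes in the 3 DMSO 24 h and 3 DMSO 4 h libraries. Each point is a library and lines join libraries with the same replicate number, with replicate 1 on top and replicate 2 at the bottom at both times.

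Over the list of 36 type I interferon-response genes, 0 were called by edgeR or by DESeq2, beside 0% of all genes, and 0 had an unadjusted p under 0.05 with edgeR. Their summed level was 6330, 3140 and 4500 CPM at 24 h, against 7130, 3310 and 4410 CPM at 4 h. The median log2 fold change was -0.11, beside 0.00026 over all genes tested. Replicate 1 was the highest at both times for 33 of the 36 (91.7%), and replicate 2 the lowest at both times for 31 (86.1%), against 17.7% and 11.8% of all genes tested. The median ratio of the highest to the lowest replicate was 2.08 at 24 h and 2.17 at 4 h, against 1.21 and 1.14 over all genes. The median SE was 0.47 without the block and 0.157 with it. Without the block the interval lay within 2-fold for 12 of the 36 genes, and with the block for 33. In the 8 groups of the experiment, treated ones included, the summed level was highest in replicate 1 in 8 of 8. The labels do not say what the replicate numbers share beyond their name.

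Genes of antigen presentation and of the interferon gamma response shared the high level of replicate 1. HLA-B, a class I antigen-presenting molecule gene, was at 358, 152 and 165 CPM at 24 h, against 324, 159 and 179 CPM at 4 h. Its log2 fold change was -0.01 with a 95% interval of -0.25 to 0.24 under the block, and 0.03 with an interval of -0.91 to 0.97 without it. IDO1, a tryptophan-degrading enzyme gene, was at 43.7, 21.6 and 14.8 CPM at 24 h, against 43.5, 20.9 and 24.3 CPM at 4 h. Replicate 1 was highest at both times for 20 of the 23 genes of this list, and replicate 2 lowest for 10 and replicate 3 for 3. Replicate 1 was also highest for 13 of 18 genes of the ERK pathway output list, for 13 of 19 cytokine and NF-kB feedback genes and for 6 of 9 metallothionein list genes. So it was for 9 of 16 epithelial state genes and 12 of 24 lysosome and autophagy genes. Over all genes tested the share was 17.7%. CXCL8, which encodes interleukin 8, was at 44.5, 23.9 and 16.4 CPM at 24 h, against 42.4, 21.8 and 23.9 CPM at 4 h. IL6 was at 18.4, 8.92 and 5.68 CPM at 24 h, against 14, 8.11 and 9.66 CPM at 4 h. Its groups overlapped, as did those of CXCL8 and IDO1.

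Proliferation and sterol genes had another order of the same numbers. Replicate 3 was highest at both times for 17 of 30 genes of DNA replication and 16 of 28 genes of mitosis, and replicate 1 was lowest at both times for 21 in each list. Over all genes tested, 2164 of 14547 were highest in replicate 3 and 2463 were lowest in replicate 1 at both times. The mitotic cyclin gene CCNB1 was at 311.9, 347.5 and 367.4 CPM at 24 h, against 330.4, 341.2 and 335.8 CPM at 4 h, a log2 fold change of 0.03 (95% interval -0.16 to 0.21). The replication helicase gene MCM2 was at 172, 193 and 201 CPM at 24 h, against 176, 199 and 193 CPM at 4 h (log2 fold change 0, interval -0.27 to 0.26). Neither list had a called member, and their medians were 0.03 for mitosis and 0 for replication. Of 25 cholesterol genes, 13 were highest in replicate 2 and 15 lowest in replicate 1 at both times. Among all 14547 genes tested, 1549 were highest in replicate 2 at both times.

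The libraries of the 24 h group were not alike, and the split lay in transcripts rich in A and T. CENPF, which encodes a kinetochore protein (chromosome 1, 214603195 to 214664588), was at 44, 62.1 and 493.8 CPM at 24 h, against 444.0, 348.6 and 424.7 CPM at 4 h. Replicates 1 and 2 at 24 h lay far below the 4 h libraries, and replicate 3 above them. GOLGB1, the gene of the Golgi tether giantin (chromosome 3, 121663199 to 121749767), was at 13.5, 20.3 and 130 CPM at 24 h, against 151, 108 and 130 CPM at 4 h. DST, which encodes a cytoskeletal linker, was at 56, 69.7 and 331 CPM at 24 h, against 340, 278 and 321 CPM at 4 h. The same split held in TPR, a nuclear pore gene, in ASPM, a mitotic spindle gene, and in IL6ST, the gene of the shared receptor subunit gp130. IL6ST was at 203, 147 and 365 CPM at 24 h, against 476, 367 and 383 CPM at 4 h. The mesenchymal transcription factor gene ZEB1 was at 36.8, 29.4 and 90 CPM at 24 h, against 109, 86.6 and 94.2 CPM at 4 h.

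With every 24 h library in the fit, these genes had wide intervals. CENPF had a log2 fold change of -1.02 (95% interval -4.09 to 2.05), ZEB1 of -0.89 (-2.87 to 1.09) and IL6ST of -0.78 (-2.7 to 1.14). Without DMSO 24 h replicate 3 the log2 fold changes were -2.94 in CENPF, -2.94 in GOLGB1, -2.64 in ASPM, -2.32 in DST and -2.28 in TPR, and still none was called. The spread in that fit was estimated over all 8 groups, treated ones included, so it does not describe the DMSO libraries alone. GC-poor transcripts also scattered in treated groups. In DEX with DMSO at 24 h their median log2 deviation was -1.38 in replicate 2 and 1 in replicate 3. Chosen by their values, 239 genes at 5 CPM or more lay at least 1.5-fold below the lowest 4 h library in 24 h replicates 1 and 2 and not more than 1.1-fold below it in replicate 3. No gene met the same rule for the other 2 pairs of 24 h libraries, and none lay as far above in replicates 1 and 2 alone. For a single 24 h library, 0 genes met it for replicate 1, 7 for replicate 2 and 39 for replicate 3. The transcripts of the 239 genes had a median GC content of 37.3%, with quartiles of 35.8% and 39.1%, and a median length of 6686 bases. Over 10521 genes the medians were 47.9% and 3828 bases. The median SE was 0.76 in these genes, against 0.124 over the 10521. Of the 28 genes of the mitosis list 6 are among them, CENPE, CENPF, DLGAP5, HMMR, TOP2A and TTK, beside 239 of all 10521 genes. CLOCK, CCNE2, SAMD9 and ZEB1 are the members from other lists. CENPE, DLGAP5, HMMR and TOP2A were highest in replicate 3 at both times, so they also count among the 16 such mitosis genes above. CCNE2 likewise counts among the replication genes highest in replicate 3.

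**Figure D2:**
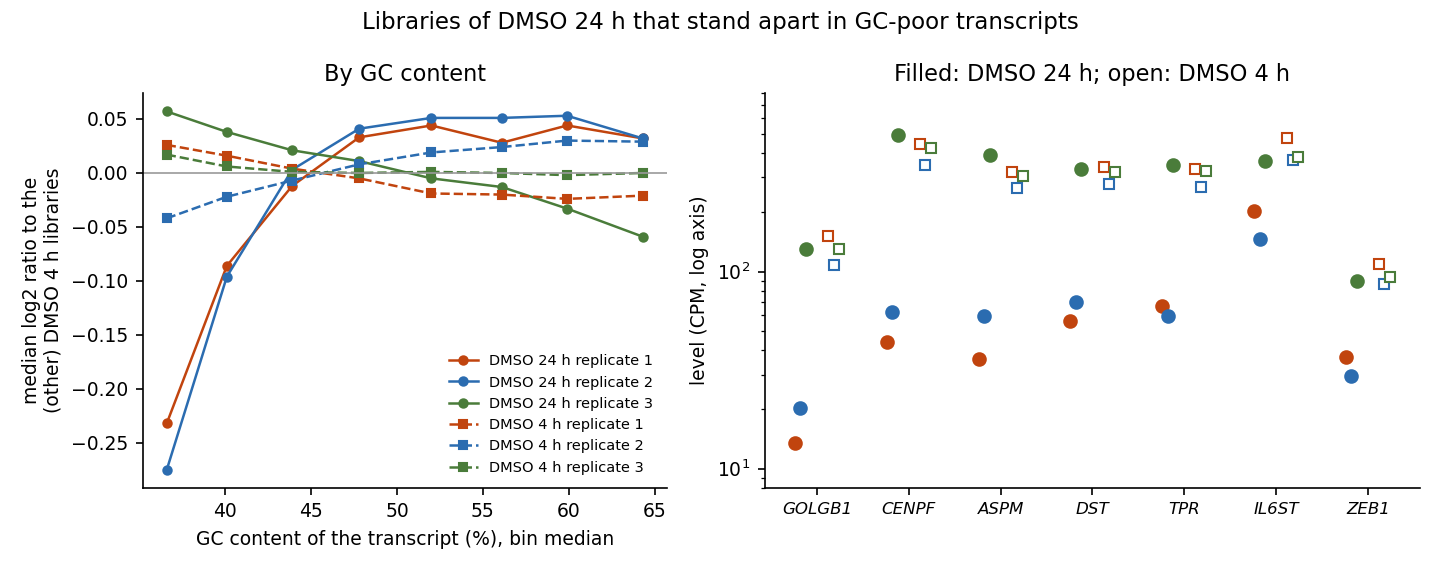
Left, the median log2 ratio of each DMSO library to the mean of the DMSO 4 h libraries (for a 4 h library, of the other 4 h libraries) in bins of transcript GC content; right, levels in CPM (log axis) of 7 genes, DMSO 24 h left of DMSO 4 h, with colours for the replicate number as in the left panel. DMSO 24 h replicates 1 and 2 lie at -0.232 and -0.275 in the bin poorest in GC, while the other 4 libraries stay between -0.042 and 0.057 there.

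Across all genes at 5 CPM or more with a GC value (10244), the log2 ratio to the 4 h mean had a Spearman correlation with GC content of 0.37 and 0.45 in DMSO 24 h replicates 1 and 2 and of -0.2 in replicate 3. It was -0.19, 0.31 and -0.06 in the 4 h libraries set against the other 4 h libraries. These are correlations across genes that share 1 library and are not independent. Set against Poisson noise, the chi-square divided by its degrees of freedom was 50.4 between 24 h replicates 1 and 3 and 8.68 between replicate 3 at 24 h and replicate 3 at 4 h, so the third 24 h library lay nearer to a 4 h library than to its own group. Within each of the other 24 h groups, the correlation of a library's deviation with GC content was also positive in replicate 2 and negative in replicate 3, reaching 0.76 and -0.78 with DEX and DMSO. Replicate 1 did not keep its side. It had 0.24 within DMSO 24 h, the sign of replicate 2. In the other 24 h groups it had -0.41 with BRM014, -0.18 with DEX and DMSO and -0.05 with DEX and BRM014. The 4 h groups also varied, in other orders: replicates 1, 2 and 3 had -0.58, -0.58 and 0.72 with BRM014, -0.4, 0.53 and -0.43 with DEX and BRM014, and -0.31, 0.26 and 0.26 with DEX and DMSO. The part of RNA quality or library preparation in this pattern was not tested. With offsets for each library's smooth trend with GC content and length, 0 genes were called and 222 had an unadjusted p under 0.05. With the replicate block in the same fit 0 were called, with 467. Such offsets follow the trend over all genes, so the larger shift of the 239 genes may remain. In 24 h replicates 1 and 2 the bin poorest in GC had medians of -0.232 and -0.275, and the 239 genes -1.07 and -1.14. Without both DMSO 24 h replicates 1 and 2, 0 were called and 427 had an unadjusted p under 0.05. These 3 settings were chosen after seeing the data.

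Among genes with the smallest p-values the differences were small, and 0 passed the adjusted threshold. They were chosen by those p-values, so their values are a description. HTR1B, which encodes a serotonin receptor (chromosome 6, 77461753 to 77463773), was at 13.4, 13.9 and 14.9 CPM at 24 h, against 10.6, 11.3 and 11.8 CPM at 4 h (log2 fold change 0.33, 95% interval 0.12 to 0.53, edgeR adjusted p = 1). Each 24 h level was above each 4 h level. CTU1, which encodes a tRNA-modifying enzyme, was at 17.4, 17 and 16.6 CPM at 24 h, against 20.4, 20.3 and 21.1 CPM at 4 h (log2 fold change -0.27, interval -0.46 to -0.09). ARL6IP6 was at 16.4, 18.1 and 17.1 CPM at 24 h, against 20.4, 20.3 and 20 CPM at 4 h. CIT, the gene of citron kinase, which acts in cytokinesis, was at 69.7, 79.9 and 76.3 CPM at 24 h, against 54.8, 65.1 and 65.9 CPM at 4 h (log2 fold change 0.28, interval 0.06 to 0.5).

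Genes that read oxygen, nutrients and crowding had no called member in any list, and several lists leaned slightly to lower levels at 24 h. Of 29 hypoxia and glycolysis genes, 7 were lower at 24 h without overlap, beside 4.68% of all genes, and 3 had an unadjusted p under 0.05, with a list median of -0.09. BNIP3, a mitophagy gene induced by HIF (chromosome 10, 131966455 to 131982013), was at 77.3, 75.5 and 93.6 CPM at 24 h, against 97.6, 92.5 and 109 CPM at 4 h. The highest 24 h library lay just above the lowest 4 h library, and the log2 fold change was -0.28 (95% interval -0.49 to -0.07, edgeR adjusted p = 1). PGK1, a glycolytic kinase gene, was at 632, 634 and 631 CPM at 24 h, against 717, 707 and 743 CPM at 4 h (log2 fold change -0.19, interval -0.37 to -0.02). CA9, which encodes a carbonic anhydrase, was at 3.43, 2.09 and 1.5 CPM at 24 h, against 3.29, 3.13 and 4.31 CPM at 4 h, with replicate 1 alone not lower. VEGFA, the gene of the angiogenic growth factor, overlapped, at 105, 76.5 and 70.3 CPM at 24 h, against 90.7, 78 and 88.6 CPM at 4 h.

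Of 20 ribosomal protein and translation factor genes, 10 were lower at 24 h without overlap, beside 4.68% of all genes, with a list median of -0.08 and log2 fold changes between -0.13 in RPS3 and -0.02 in EEF2. RPLP0, a ribosomal stalk gene, was not among the 10, since its groups overlapped. It was at 644, 711 and 647 CPM at 24 h, against 701, 712 and 703 CPM at 4 h. In endoplasmic reticulum chaperone genes, 3 of 15 were lower without overlap, beside 4.68% of all genes, and the median was -0.08. HSPA5, the main such chaperone gene, overlapped, at 1840, 1620 and 1310 CPM at 24 h, against 1860, 1650 and 1670 CPM at 4 h. Amino acid response genes targeted by ATF4 had a median of -0.08, and ASNS, the asparagine synthetase gene, was at 144, 130 and 92.4 CPM at 24 h, against 143, 126 and 130 CPM at 4 h. Its 24 h replicate 3 was the low library, as it was for DDIT4, TRIB3 and HSPA5. YAP and TEAD target genes had a median of 0.1. CYR61, a matricellular target of YAP, was at 416, 406 and 355 CPM at 24 h, against 357, 390 and 365 CPM at 4 h (log2 fold change 0.08, 95% interval -0.11 to 0.28).

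**Figure D3:**
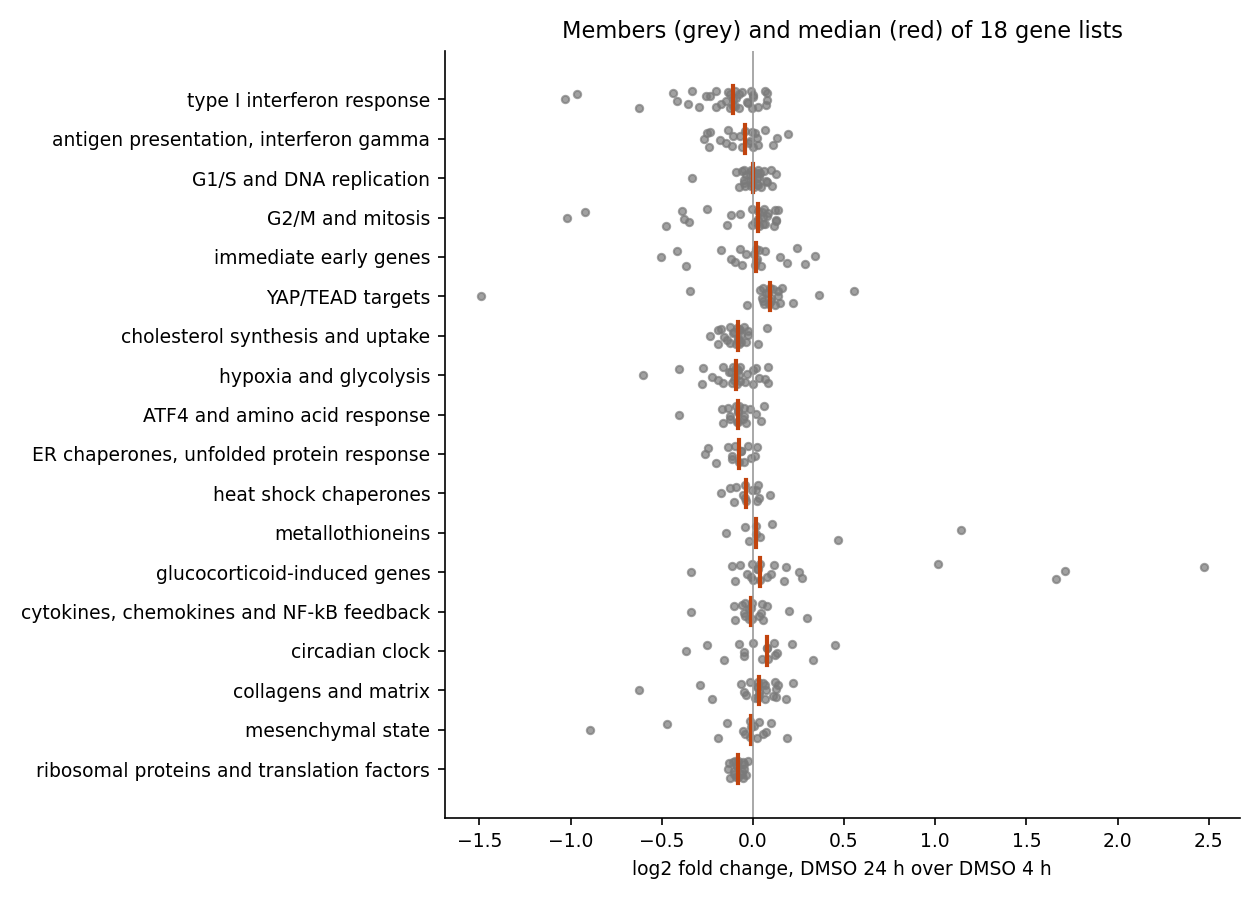
Log2 fold changes of DMSO 24 h over DMSO 4 h for the tested members of 18 gene lists (grey points, spread vertically for visibility) with each list's median (red bar). The medians of these 18 lists lie between -0.11 and 0.1, and no member was called. Lists not drawn reached further. Their medians were -0.35 for RNAs without a poly(A) tail, -0.21 for blood-cell markers (3 genes tested) and -0.17 for the epithelial state. The endothelial markers, with 1 gene tested, were at 0.23.

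Among rhythmic and inducible genes, the circadian repressor gene NR1D1 was at 6.24, 5.37 and 5.62 CPM at 24 h, against 4.93, 4.85 and 5.06 CPM at 4 h, higher without overlap (log2 fold change 0.22, 95% interval -0.12 to 0.55). ARNTL, which encodes the clock activator BMAL1, was at 17.3, 16.4 and 13.9 CPM at 24 h, against 16.8, 16.9 and 15.5 CPM at 4 h. Of 17 clock genes 3 were higher without overlap, beside 4.29% of all genes. Immediate early genes had a median of 0.02. EGR1 was at 52.6, 44.3 and 24.5 CPM at 24 h, against 34.7, 35.3 and 32.5 CPM at 4 h, and its 24 h replicates lay on both sides of the 4 h ones. Glucocorticoid-induced genes had a median of 0.04, and several known targets were low at both times in these cells without DEX. PDK4 stayed under 0.6 CPM, and FKBP5, a receptor co-chaperone gene, was at 1.22, 1.29 and 1.02 CPM at 24 h, against 0.711, 1.01 and 1.22 CPM at 4 h. KLF15 had 7, 3 and 3 counts at 24 h, against 1, 1 and 1 at 4 h, too few for a fold.

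Matrix and lipid genes gave the same picture, again with 0 called members. COL1A1, a collagen gene, was at 1460, 1350 and 1280 CPM at 24 h, against 1080, 1330 and 1340 CPM at 4 h (log2 fold change 0.13, 95% interval -0.23 to 0.49). SCD, which encodes a fatty acid desaturase, was at 9180, 7590 and 4520 CPM at 24 h, against 8600, 7370 and 7080 CPM at 4 h. The spread lay mostly in 24 h replicate 3. All 25 cholesterol genes had an interval within 2-fold. Of 6 RNAs without a poly(A) tail, 2 were lower without overlap, beside 4.68% of all genes, with a list median of -0.35 and a highest value of 0.82 in RPPH1, the RNA of ribonuclease P. RN7SL1, the RNA of the signal recognition particle, was at 15.8, 14.6 and 15.5 CPM at 24 h, against 22.6, 20.1 and 19.9 CPM at 4 h (log2 fold change -0.45, interval -0.79 to -0.11, edgeR adjusted p = 1). The part of ribosomal RNA depletion or fragment size in such short RNAs was not tested.

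Regulators at the centre of the series had no called difference, and the widest of their intervals was that of NR3C1. GATA6 (chromosome 18, 22169443 to 22202528) was at 98, 114 and 108 CPM at 24 h, against 97.4, 103 and 105 CPM at 4 h, a log2 fold change of 0.07 (95% interval -0.2 to 0.33). NR3C1, the glucocorticoid receptor gene, averaged 295 ± 38.3 CPM at 24 h and 297 ± 6.73 CPM at 4 h (SD, n = 3 each), with the highest 24 h level in replicate 3 (log2 fold change -0.01, interval -0.53 to 0.51). SMARCA4, the BRG1 gene, was at 284.6, 321.3 and 324.0 CPM at 24 h, against 266.2, 313.8 and 303.1 CPM at 4 h (log2 fold change 0.07, interval -0.17 to 0.32). SMARCA2, the BRM gene, was at 12.4, 11.7 and 12.7 CPM at 24 h, against 11.7, 13.6 and 11.7 CPM at 4 h (log2 fold change -0.01, interval -0.35 to 0.33). FOSL1, the gene of the AP-1 protein FRA1, was at 60.4, 41.5 and 43.2 CPM at 24 h, against 48.2, 37.6 and 42 CPM at 4 h (log2 fold change 0.18, interval -0.2 to 0.56). JUN was at 306.7, 307.9 and 262.8 CPM at 24 h, against 301.4, 313.1 and 299.9 CPM at 4 h (log2 fold change -0.06, interval -0.35 to 0.23). Every one of these intervals lies within 2-fold.

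The same step in time was far larger in treated cells. Between 24 h and 4 h, edgeR called 4472 genes (30.7%) with DEX and BRM014, 3595 (24.7%) with BRM014 and 3364 (23.1%) with DEX and DMSO, all in the same fit as the DMSO cells. Directions depended on scaling: with DEX and DMSO 1518 were higher and 1846 lower, and by library totals alone 2684 and 1563. Without DEX with DMSO 24 h replicate 2 they were 966 and 1549. With BRM014 1542 were higher and 2053 lower, and by library totals alone 3177 and 1315. With DEX and BRM014 2187 were higher and 2285 lower, and by library totals alone 3326 and 1797. Among the 10633 genes at 5 CPM or more the median size of the log2 fold change was 0.233 with DEX and BRM014, 0.199 with BRM014 and 0.222 with DEX and DMSO, against 0.0646 with DMSO. Estimates beyond 2-fold among these genes numbered 692, 468 and 474 in these treated groups, against 13 with DMSO. Under the replicate block they numbered 712, 474 and 621, against 70 with DMSO. The difference between DEX with BRM014 and DMSO was not tested.

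**Figure D4:**
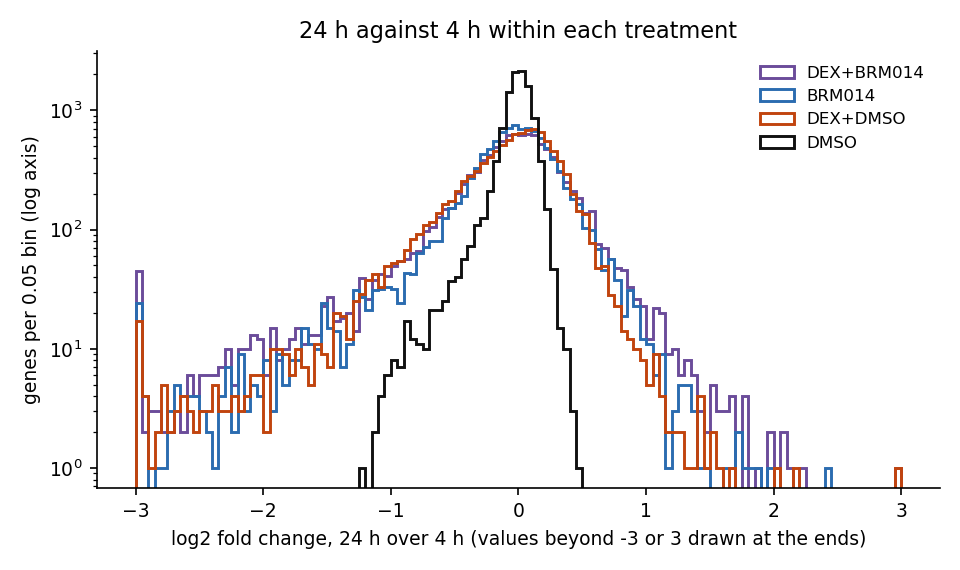
Distribution of the log2 fold change of 24 h over 4 h for 10633 genes at 5 CPM or more in each treatment (outlines; genes per bin on a log axis). The DMSO outline is the narrowest, between -1.25 and 0.46, with 468 to 692 genes beyond 2-fold in the treated groups against 13 in DMSO (474 to 712 against 70 under the replicate block).

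Whether the time step differed from that in DMSO was tested directly, and it did in 1294 genes (8.9%) for DEX with DMSO, 380 (2.61%) higher and 914 (6.28%) lower. By library totals alone the split was 702 and 827. With the replicate block 1945 genes were called, 650 higher and 1295 lower, and with GC and length offsets added 2959, 1402 higher and 1557 lower. Leaving out a library brought the higher calls to 211 without DMSO 4 h replicate 3, 244 without DMSO 24 h replicate 2 and 230 without DEX with DMSO 24 h replicate 2. In the 1294 genes the median size of the log2 fold change was 0.863 with DEX and 0.0767 with DMSO, and in 1187 of them the DMSO interval lay within 2-fold. For BRM014 the difference was called in 1373 genes (9.44%), 420 (2.89%) higher and 953 (6.55%) lower, or 969 and 722 by library totals alone. With the replicate block 2033 were called, 654 higher and 1379 lower, and with GC and length offsets added 2873, 1501 higher and 1372 lower. Across all genes the replicate numbers did not pair the BRM014 libraries over time. Without DMSO 4 h replicate 3 the higher calls numbered 273. In the 1373 genes the medians were 0.922 with BRM014 and 0.0729 with DMSO, and 1289 had a DMSO interval within 2-fold. Both sets of genes were chosen by the test of the same difference, so these medians describe them and are no further test. Over all genes at 5 CPM or more the DMSO interval lay within 2-fold in 92.6%.

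ABLIM3, which encodes an actin-binding LIM protein, was at 129, 124 and 108 CPM in DEX with DMSO at 24 h and at 10.3, 10.2 and 10.1 CPM at 4 h. In DMSO it was at 0.406, 0.222 and 0.272 CPM at 24 h and at 0.444, 0.264 and 0.64 CPM at 4 h. The difference of the time steps was 4.08 on the log2 scale (SE 0.624, edgeR adjusted p = 0.000253). CD248, the gene of the stromal surface protein endosialin, was at 136, 147 and 104 CPM in DEX with DMSO at 24 h and at 10.6, 14 and 12.2 CPM at 4 h. In DMSO it was at 7.53, 5.19 and 3.17 CPM at 24 h and at 5.42, 5.38 and 4.77 CPM at 4 h. LBH, SCNN1A, which encodes a subunit of the epithelial sodium channel, and H19, a non-coding RNA gene, completed the 5 largest on the higher side. H19 had 6, 0 and 0 counts in DMSO at 24 h and 2, 4 and 1 at 4 h, and its call (edgeR adjusted p = 0.0499) was lost in 11 of 12 fits that left out a library, with adjusted p up to 0.282 without DMSO 4 h replicate 2. Its difference was 3.85 on the log2 scale with all libraries, and without DMSO 24 h replicate 1 it was 7.72 (edgeR adjusted p = 0.00483), a fitted value against a group at 0 that depends on the prior count.

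On the lower side, IDO1 was at 2.12, 1.24 and 0.76 CPM in DEX with DMSO at 24 h and at 36.8, 16.3 and 16.7 CPM at 4 h, beside the DMSO levels given above (difference -3.88, SE 0.78, edgeR adjusted p = 0.00366). SEMA5B, a semaphorin gene, was at 0.782, 0.574 and 0.304 CPM in DEX with DMSO at 24 h and at 11.7, 9.9 and 9.82 CPM at 4 h. In DMSO it was at 21.7, 14.1 and 5.96 CPM at 24 h and at 14.9, 14.9 and 12.7 CPM at 4 h, without a shared direction among the numbers. RRAD, a small GTPase gene, and KLF15, a transcription factor gene known as a glucocorticoid target, had a different course. RRAD was at 0.598, 1.9 and 2.74 CPM in DEX with DMSO at 24 h and at 25.1, 24.5 and 32.2 CPM at 4 h, while in DMSO it lay between 0.291 and 0.617 CPM at both times. KCNV1, a potassium channel gene, was the remaining one of the 5.

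For BRM014, FGFR3, a growth factor receptor gene, was at 35.3, 40.9 and 35.9 CPM in BRM014 at 24 h and at 6.01, 6.15 and 7.48 CPM at 4 h. In DMSO it was at 4.1, 4.84 and 4.7 CPM at 24 h and at 4.22, 5.02 and 5.53 CPM at 4 h (difference 2.62, SE 0.219, edgeR adjusted p = 1.3e-07). C2CD4C, KIF1A, a kinesin gene, HR and CHD5, a chromatin remodeller gene, were the others on the higher side. CPA4, a carboxypeptidase gene, was at 1.05, 1.73 and 2.66 CPM in BRM014 at 24 h and at 53, 39.8 and 44.2 CPM at 4 h. In DMSO it was at 49.6, 28.7 and 34.2 CPM at 24 h and at 48.5, 33.3 and 34.9 CPM at 4 h (difference -4.59, SE 0.482, edgeR adjusted p = 5.18e-06). KRT19, KCNK3 and GBP2 were also on the lower side, and in each the BRM014 level at 24 h was under 0.5 CPM.

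**Figure D5:**
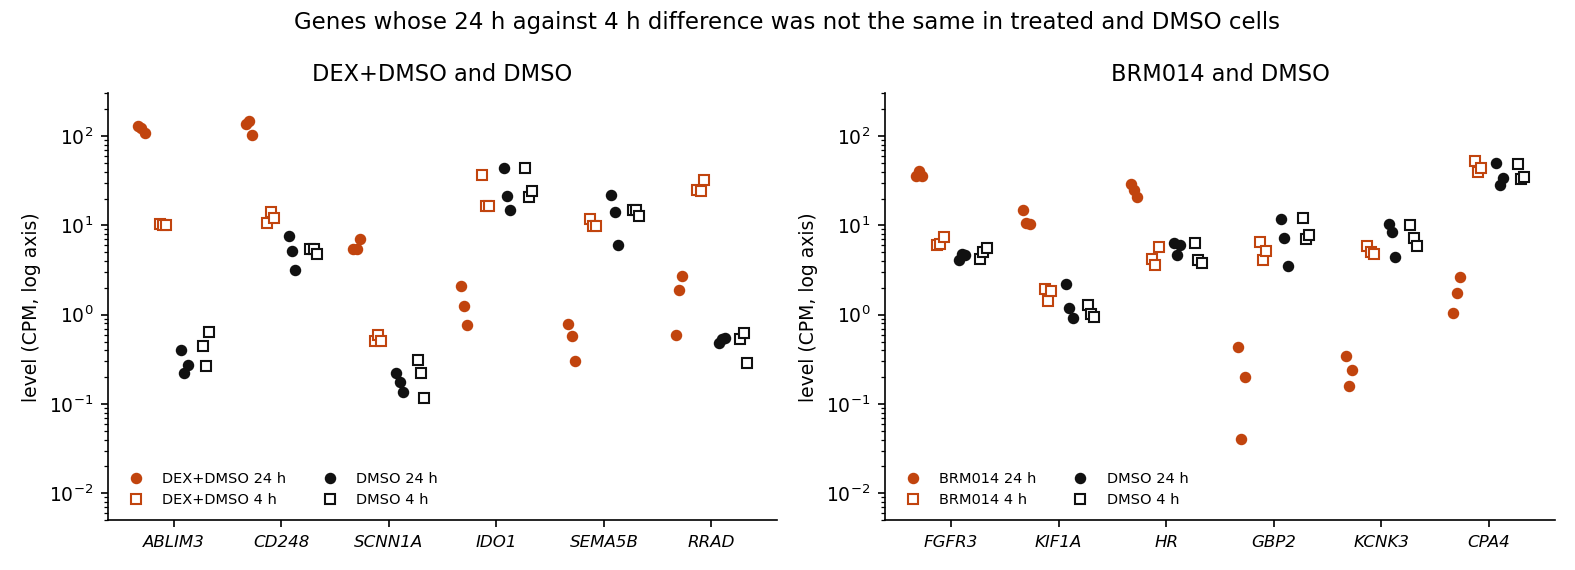
Levels in CPM (log axes) of 6 of the genes named for each difference, with the treated group in red left of DMSO in black, filled circles for 24 h and open squares for 4 h, 3 libraries each. The DMSO points at the 2 times overlap in each gene shown, while the treated points at 24 h stand clear of those at 4 h.

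Most interferon-response genes fell with time in treated cells, whereas no member was called in DMSO. With BRM014 22 of 36 were lower and none higher at 24 h, with a median log2 fold change of -1.49, beside 14.1% of all genes called lower. With DEX and DMSO 28 of 36 were lower and none higher, with a median of -2, beside 12.7%. The difference from the DMSO time step was called lower in 5 of 36 for BRM014, beside 6.55% of all genes, and in 15 of 36 for DEX, beside 6.28%. These fits leave out the replicate number, with which the genes vary in all 8 groups. With the replicate block the difference was called lower in 28 of 36 for BRM014, beside 9.48% of all genes, and in 28 of 36 for DEX, beside 8.9%. Across all genes the numbers were not taken to pair the DEX or the BRM014 libraries over time. Endoplasmic reticulum chaperone genes were called lower in the difference in 10 of 15 for BRM014, beside 6.55% of all genes, and in 4 of 15 for DEX, beside 6.28%. DNA replication genes were higher at 24 h in 12 of 30 with DEX and DMSO, beside 10.4% of all genes, and 5 of 30 were called higher in the difference, beside 2.61%. These counts hold for TMM scaling, and library totals alone moved the median of all genes by up to 0.16 on the log2 scale.

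The choice of baseline was laid side by side for the 24 h treatments. Against the DMSO cells of 24 h, DEX with DMSO at 24 h had 3717 called genes (25.6%), and against the DMSO cells of 4 h it had 3931 (27%). BRM014 at 24 h had 4589 called genes (31.5%) against DMSO at 24 h and 4992 (34.3%) against DMSO at 4 h. Each pair shares its treated libraries, so these counts are not independent of each other. For BRM014, 2198 were higher and 2391 lower against DMSO at 24 h, or 3672 and 1785 by library totals alone. Against DMSO at 4 h 2503 were higher and 2489 lower, or 4198 and 1740 by library totals alone.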

How the data were processed

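RNA of BT549 cells was depleted of ribosomal RNA and sequenced in paired ends, per the labels' protocols. The deposited values are raw read counts per gene, 1 table of 26517 symbols per library. The tools named in the submitters' processing notes are featureCounts, SAMtools, bcl2fastq and DESeq2, and the builds are GRCh38 and hg38. The aligner, the annotation and the strand setting are ones not given in the sources used here. Since strand is unknown, genes with an antisense partner or a near-identical copy are uncertain. A table of the whole series was not used (1 column).

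All 24 libraries of the BRM014 experiment were fitted together in edgeR 4.0.16 under R 4.3.3, next to limma 3.58.1. The model had 8 group means, TMM scaling and a robust quasi-likelihood test on both sides. The filter filterByExpr left 14547 genes, over which p-values were adjusted by Benjamini-Hochberg. Called means an adjusted p under 0.05. The sharing of spread over 24 libraries gave a biological coefficient of variation of 18.8%. CPM uses TMM-scaled totals, and each value is a library. A log2 fold change of a gene with few counts depends on the prior count. Counting limits (3 counts) cover counting error only, since reads are not independent molecules. Code was tested on simulated data.

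The labels number biological replicates 1 to 3 in each group, but say nothing of cultures or days, so the p-values reflect only how far these samples scatter, which may be technical. Deviations from the group means of same-numbered DMSO libraries correlated at 0.227, 0.149 and 0.135 across genes. For unlike numbers the values were 0.003 or less. Deviations within a group cancel out in each gene, so the values for unlike numbers are tied to the others and are no separate check. The main fit leaves the replicate number out, and the block was run as an alternative. By the correlations of same numbers, the numbers were taken to pair the libraries of these 2 groups. They were not taken to pair the DEX libraries of the 2 times, where a correlation was as low as 0.02. Nor were they taken to pair the BRM014 libraries of the 2 times, where the correlations were 0.144, -0.036 and -0.108.

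Members and lists were chosen with earlier results of these data known. By the rule for named genes, the DMSO comparison names up to 15 called genes in each direction and each list up to 4 called members (there were 0). Each difference names the 5 called genes largest in each direction whose highest group averages 5 CPM or more. GATA6, NR3C1, SMARCA4, SMARCA2, FOSL1, JUN, ESR1, PGR, ERBB2 and FOXA1 are always given. Some items that the rule names are not reported here. Other genes named were chosen after their values were seen. Promoters are from RefSeq on GRCh38.p14. Gene coordinates, GC content and length (longest transcript, 13701 genes, 94.2%) are from GENCODE on GRCh38. Alternatives were the replicate block, other scalings, no filter, DESeq2 1.42.0, single libraries left out and the 6 libraries alone.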

Additional observations from a re-analysis of the deposited data

Results flagged for a closer look

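The time step of treated cells differed from that of DMSO cells by the test of the difference itself in 1294 genes for DEX with DMSO and in 1373 genes for BRM014 (edgeR's quasi-likelihood test). For DEX the log2 differences of the 10 genes named by size were 4.28 in LBH, 4.08 in ABLIM3, 3.85 in H19, 3.77 in SCNN1A and 3.37 in CD248 on the higher side, and -4.71 in KCNV1, -4.14 in KLF15, -4.13 in SEMA5B, -4.1 in RRAD and -3.88 in IDO1 on the lower side. For BRM014 they were 2.62 in FGFR3, 2.45 in C2CD4C, 2.39 in KIF1A, 2.18 in HR and 2.06 in CHD5, and -4.59 in CPA4, -4.39 in KRT19, -4.35 in KCNK3 and -4.27 in GBP2. The values of LBH, ABLIM3, H19, SCNN1A, KCNV1, KLF15 and RRAD rest on few DMSO counts and depend on the prior count.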

How the results depend on the processing

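The count of 0 called genes between DMSO 24 h and DMSO 4 h held under all 16 other settings, with 129 to 776 genes at an unadjusted p under 0.05 and a smallest adjusted p of 0.798. No named gene and no member of the 34 lists was called under any of them. With the replicate block 0 genes were called there, and the difference for DEX with DMSO moved to 1945 genes, where the numbers did not pair the DEX libraries. The numbers did not pair the BRM014 libraries over time either. With the replicate block and GC and length offsets the differences numbered 2959 for DEX with DMSO and 2873 for BRM014, 1402 and 1501 of them higher, and the cause was not tested. H19 lost its call in the DEX difference without the filter on low counts (edgeR adjusted p = 0.074).

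Leaving out single libraries gave 0 to 0 called genes for DMSO, 2515 to 3319 for DEX with DMSO over time, 2895 to 3201 for BRM014 over time and 3538 to 4319 for DEX with BRM014 over time. The differences ranged over 891 to 1275 for DEX and 995 to 1308 for BRM014. Against DMSO at 24 h and at 4 h the DEX counts ranged over 2848 to 3701 and 2915 to 4048, and the BRM014 counts over 3822 to 4270 and 3973 to 4629. Scaling by library totals moved the median of all genes by up to 0.16 on the log2 scale.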
